A study of Mus musculus with 15 samples.

Results

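The cell surface receptors for interleukins, interferons and tumor necrosis factor (TNF) family ligands were examined in liver tumors and livers of mice. The genes were taken by symbol from the probe table of the array, as every interleukin receptor, interferon receptor and numbered TNF receptor superfamily gene it held, without the soluble IL-1 receptor antagonist gene Il1rn. This gave 61 of the 17796 genes that had a probe, and the 61 genes were covered by 124 probes. Receptor chains whose symbols have another form, such as Il6st, Csf1r and Fas, were kept apart and are given at the end.

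RNA came from adult male mice of the B6/129 strain (129S1/SvImJ;C57Bl/6J), an inbred line from a cross of both parent strains, that carried no engineered allele, and all mice had been on their diet for 52 weeks. The tumor group comprised 5 liver tumors and the WD SW liver group comprised the non-tumor livers of the same 5 mice, which had a high fat Western diet (WD) and a solution of fructose and glucose as sugar water (SW). The CD liver group comprised the livers of 5 other mice fed chow (CD) with normal water. Total RNA of each sample was hybridised to 1 Illumina mouse BeadChip array, so that there were 15 arrays in all. The WD SW livers had the diet and a tumor at the same time, and these cannot be told apart, and the tumor histology of each sample was not given in the sources used here.

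Most interleukin receptors are assembled from a chain that binds the ligand and a shared chain that recruits Janus kinases, which then activate STAT transcription factors. IL-1 and IL-17 receptors instead use adaptor proteins that lead to NF-kappaB, and TNF receptors recruit either death domain adaptors, which can start apoptosis, or TRAF adaptors, which activate NF-kappaB and MAP kinases. In the liver, hepatocytes respond to IL-6 and IL-1 with the acute phase response, and Kupffer cells and recruited macrophages both produce and respond to many of these cytokines.

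Signals are given as log2 values after background correction and quantile normalization, on which a difference of 1 is a doubling of the signal and the floor of detection lay between 5.09 and 5.77 on the 15 arrays. Between 12293 and 15829 probes per array were above background. Correlations between arrays ran from 0.944 to 0.990. All 10 hepatocyte markers examined were above background, and their summed signal was 108222 to 129223 in tumors, 116327 to 134327 in WD SW livers and 125482 to 150808 in CD livers. The WD SW liver of mouse 5R stood apart. Over 326 genes that differed between the tumors and livers of the other 4 mice, its median position was 0.434 of the way from their liver mean towards their tumor mean. Each of the other livers was placed likewise over the genes called without its own mouse, 68 to 196 genes. Their median positions lay between -0.122 and -0.004.

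Only a minority of these receptor genes gave a signal that could be compared. Of the 61 genes, 14 (23.0%) were above background on all 15 arrays, against 37.1% of all genes, and 22 (36.1%) entered at least 1 comparison, against 49.9% of all genes. A further 18 genes were above background on some arrays but too few to be compared, and 21 genes were above background on no array. The 21 genes comprised the chains for IL-2, IL-9 and IL-21 (Il2ra, Il2rb, Il9r, Il21r), the chains for IL-5, IL-12, IL-23 and IL-31 (Il5ra, Il12rb2, Il23r, Il31ra), the decoy Il13ra2, the IL-1 family chains Il1rapl1, Il1rapl2 and Il1rl2, and Tnfrsf4, Tnfrsf11a, Tnfrsf13c, Tnfrsf14, Tnfrsf17, Tnfrsf18, Tnfrsf23 and Tnfrsf26. They also comprised Ifnar1, a chain of the type I interferon receptor that most cells carry and that had a single probe here, so that a signal at background describes the probe as much as the gene. Of 15 T and NK cell markers with a probe, 9 were above background on some array and 6, Cd4, Cd8a, Cd5, Cd28, Ncr1 and Gzmb, on none.

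Detection differed among the receptor classes. The class II cytokine receptors, which bind interferons and the IL-10 family, had 6 of 11 genes compared, and the TNF receptors with a death domain had 2 of 4. The receptors that use the common gamma chain, with those for IL-13, had 3 of 9. The TRAF-binding TNF receptors had 4 of 12 compared and 6 above background on no array. The IL-17 receptors had 2 of 5 compared, the IL-1 family 2 of 8, the IL-6 and IL-12 family 2 of 6, and the soluble or decoy TNF receptors 1 of 4. Neither of the 2 subunits that use the common beta chain, Il3ra and Il5ra, could be compared.

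**Figure D1:**
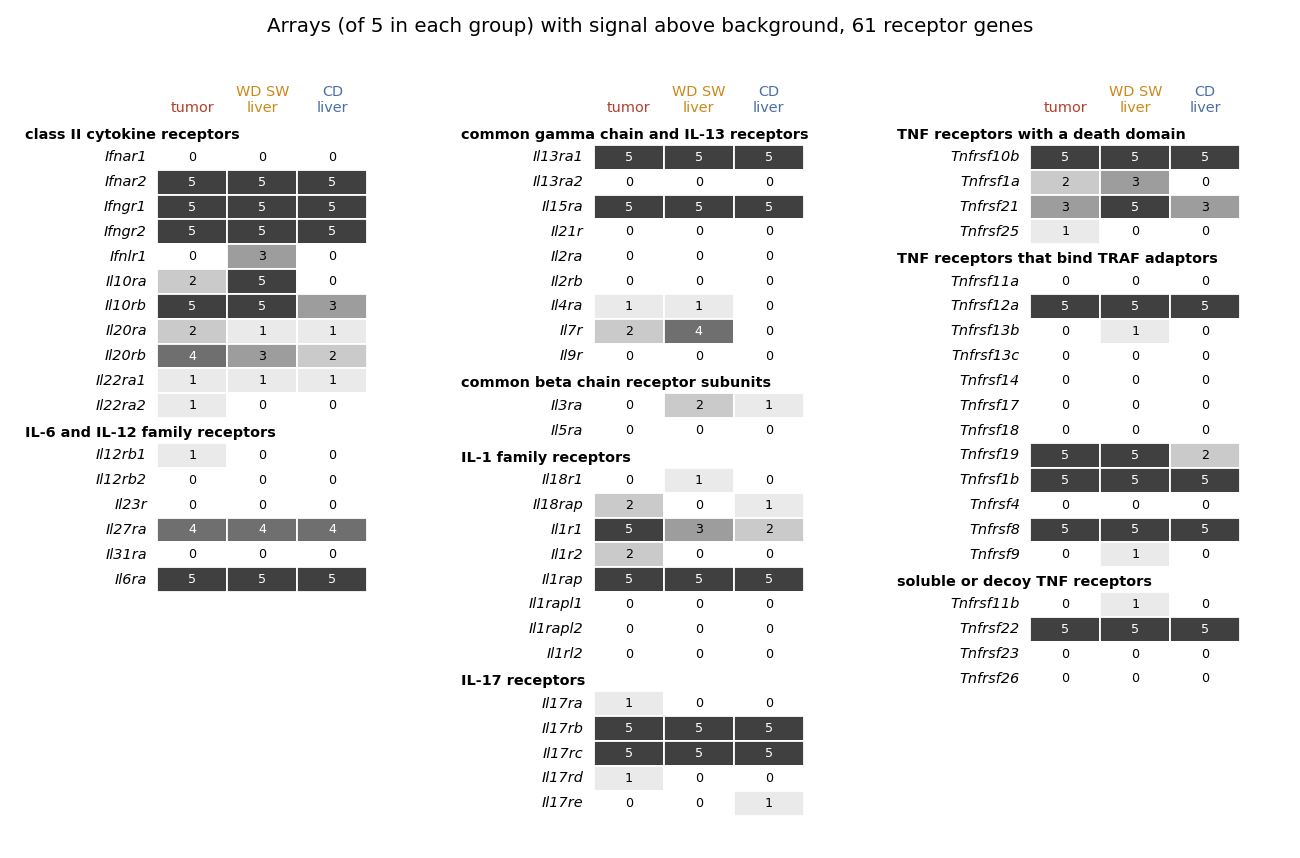
Number of arrays, of 5 in each group, on which each of the 61 receptor genes was above background, by receptor class. Where a gene has several probes, the probe with the most such arrays in that group is counted. Genes at 5 in every group are dark across the row, and 21 genes have 0 in all 3 groups.

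Livers of WD SW mice were first set against livers of CD mice, to find which receptors differ after 52 weeks on the diet. Of the 61 genes, 21 could be tested, and 4 rose in WD SW livers while none fell at an adjusted p under 0.05. Over all 8429 genes tested, 9.78% changed and 6.07% rose. The 4 that rose were 3 class II cytokine receptors, Ifngr1, Il10ra and Il10rb, and the TRAF-binding receptor Tnfrsf12a. The median difference of the 21 genes was 0.32 on the log2 scale, against -0.05 over all genes tested. Of the 21 genes, 10 (47.6%) had an unadjusted p under 0.05, against 26.2% of all genes. Il10ra passed the detection filter through the WD SW livers alone and therefore had to differ. Il10rb was above background on 5 WD SW and 3 CD liver arrays, so that the WD SW livers alone met the filter for it too. Ifngr1 and Tnfrsf12a were above background on all 5 arrays of both groups. With no filter, all 61 genes were tested and the same 4 were called. The median describes only the genes that could be measured.

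Ifngr1 encodes the ligand-binding chain of the interferon gamma receptor. Its log2 signal was 7.45, 7.85, 7.57, 7.70 and 8.04 in WD SW livers (mice 4N, 4R, 5N, 5R and 6L), against 6.21, 6.65, 6.37, 6.04 and 6.83 in CD livers (mice 1L, 1R, 2L, 2N and 3N). The lowest WD SW liver lay above the highest CD liver, and the difference was 1.30 ± 0.180 (SE, adjusted p = 0.00250). The partner chain Ifngr2, which brings in the kinase JAK2, did not move with it and averaged 8.28 ± 0.412 in WD SW livers and 8.79 ± 0.219 in CD livers (SD, n = 5 each), a difference of -0.51 ± 0.195 (SE) with an adjusted p of 0.124.

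Il10ra encodes the chain that binds IL-10, a cytokine that restrains macrophages, and is known mainly from blood-derived cells. Its log2 signal was 5.71, 7.56, 6.49, 5.79 and 6.70 in WD SW livers, all above background, against 5.0, 4.69, 4.39, 4.35 and 4.79 in CD livers, none of which was above background. With each CD liver set at the lowest signal that counted as detected there, or at its own where that was higher, the WD SW livers were at least 1.97-fold higher. The adjusted p of the fit was 0.00629, which Il10ra entered because of the WD SW livers alone, and with no filter on detection it was 0.00920. Il10rb, the second chain of the receptors for IL-10, IL-22 and type III interferons, had log2 signals of 6.33, 6.55, 7.77, 6.46 and 7.47 in WD SW livers, against 5.23, 5.64, 5.85, 5.40 and 6.01 in CD livers. The groups did not overlap and differed by 1.29 ± 0.294 (SE, adjusted p = 0.0192), although 2 of the 5 CD livers were not above background, and without CD liver 1L the difference was 1.19 with an adjusted p of 0.0521.

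Tnfrsf12a encodes Fn14, the receptor of the ligand TWEAK, known for its induction in injured and regenerating liver. Its log2 signal was 6.88, 7.11, 7.46, 7.27 and 7.76 in WD SW livers, against 6.09, 5.93, 5.90, 6.64 and 7.0 in CD livers. The groups overlapped by CD liver 3N alone, which lay above the lowest WD SW liver. The difference was 0.98 ± 0.244 (SE, adjusted p = 0.0278). This was the least stable of the 4 calls, as it was lost without CD liver 1L (adjusted p = 0.0690), 1R (0.0720) or 2L (0.0744), and without WD SW liver 5N (0.0614) or 6L (0.0575).

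**Figure D2:**
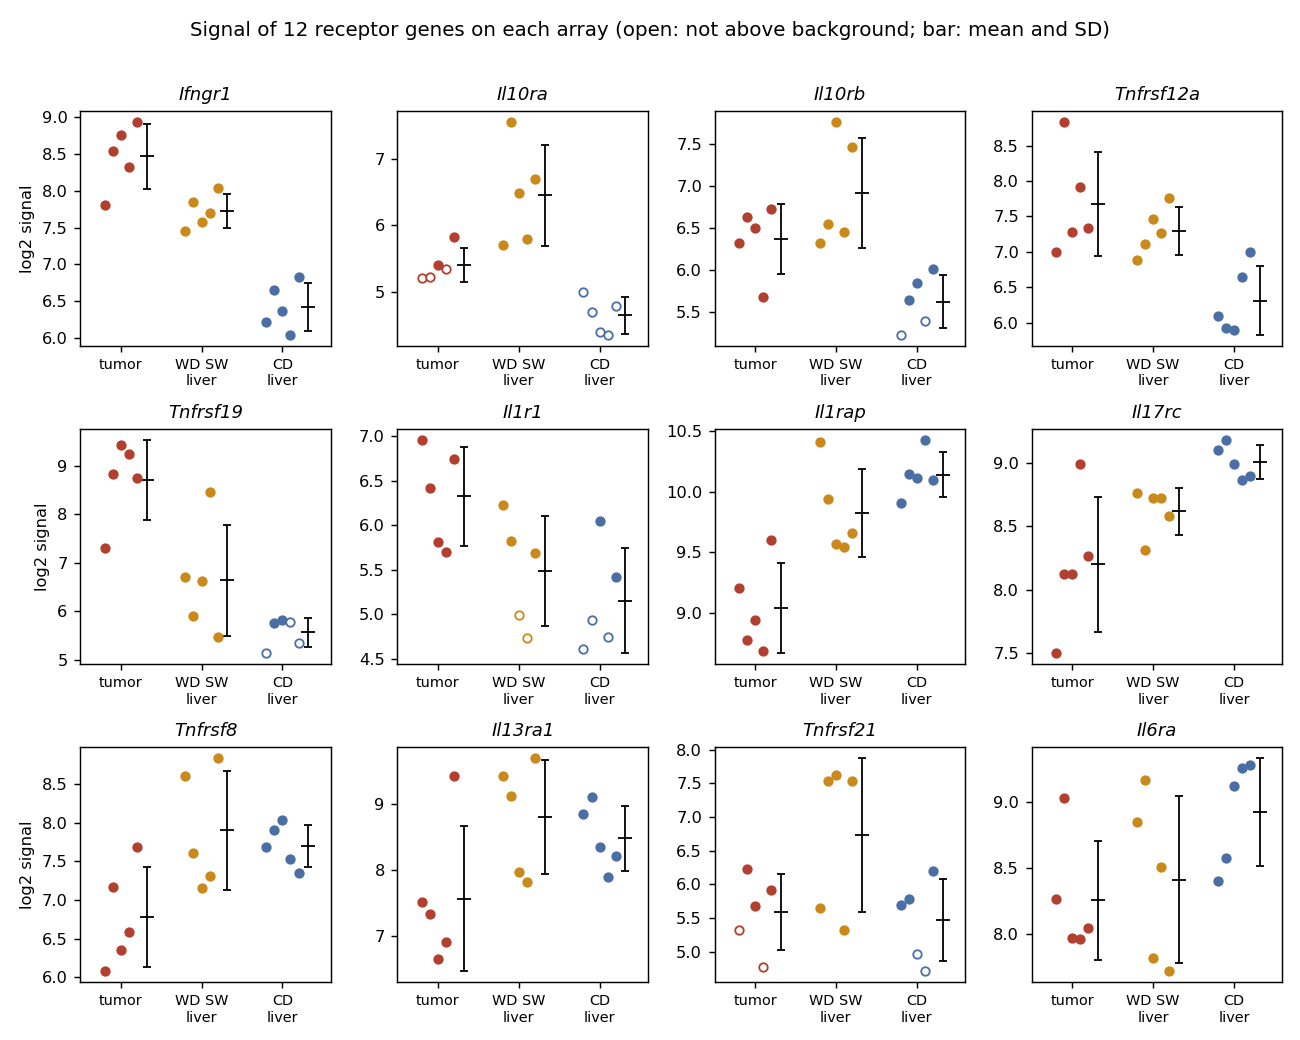
Log2 signal of 12 receptor genes on each of the 15 arrays, in tumors, WD SW livers and CD livers. Open circles are arrays on which the gene was not above background, and bars are the mean and SD of 5 arrays. For Ifngr1 and Il10ra, every WD SW liver lies above every CD liver, and for Tnfrsf19 the tumors reach 9.43.

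Of the 5 genes that rose in tumors against CD livers, as given further on, the upstream sequences are shown for the 3 with the largest differences, Tnfrsf19, Ifngr1 and Tnfrsf12a, which were chosen after their values were seen. Of the other two, Il1r1 has 2 windows, which hold 1 GC box between them and are not printed, and Il10rb is named only. Each sequence is the 250 bases upstream of a RefSeq start site in the mouse build GRCm38.p6. Of the 61 genes, 50 had such a sequence in the RefSeq promoter table used, with 57 start sites in all. Capitals mark the GC box GGGCGG, which Sp1 family factors bind and 32.7% of 32851 promoters of that length hold, or the TCF/LEF motif ATCAAAG of the Wnt pathway, which 3.21% hold, on either strand. Tnfrsf19 has 2 start sites, and of the 57 windows 25 held a GC box and 2 held the TCF/LEF motif, those of Tnfrsf19 and Tnfrsf9.
Ifngr1, chr10:19591699-19591948, plus strand: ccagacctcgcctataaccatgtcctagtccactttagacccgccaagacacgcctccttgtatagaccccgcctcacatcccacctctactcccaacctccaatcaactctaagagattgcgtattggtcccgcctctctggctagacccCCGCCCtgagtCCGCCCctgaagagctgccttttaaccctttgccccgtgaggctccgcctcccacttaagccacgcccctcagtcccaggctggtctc
Tnfrsf12a, chr17:23677450-23677699, minus strand: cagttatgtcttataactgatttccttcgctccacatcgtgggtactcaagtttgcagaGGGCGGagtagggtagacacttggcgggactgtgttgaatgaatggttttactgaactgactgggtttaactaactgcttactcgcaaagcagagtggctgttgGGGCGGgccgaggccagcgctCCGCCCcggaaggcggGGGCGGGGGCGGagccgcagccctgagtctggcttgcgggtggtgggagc
Tnfrsf19, downstream start site, chr14:61037988-61038237, minus strand: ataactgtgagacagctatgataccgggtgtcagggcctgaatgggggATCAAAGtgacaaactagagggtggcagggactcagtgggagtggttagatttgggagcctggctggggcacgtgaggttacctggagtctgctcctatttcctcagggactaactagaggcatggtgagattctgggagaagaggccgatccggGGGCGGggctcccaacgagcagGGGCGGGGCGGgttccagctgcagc
Tnfrsf19, upstream start site, chr14:61046856-61047105, minus strand: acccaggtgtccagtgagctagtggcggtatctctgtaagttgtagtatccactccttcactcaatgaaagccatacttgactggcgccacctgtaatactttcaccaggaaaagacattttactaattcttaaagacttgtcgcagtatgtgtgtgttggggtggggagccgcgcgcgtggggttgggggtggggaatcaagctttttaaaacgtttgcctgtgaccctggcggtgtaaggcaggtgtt
The Ifngr1 window holds 2 GC boxes, that of Tnfrsf12a holds 5, and that of Tnfrsf19 at its downstream start site holds 3 with 1 TCF/LEF match. The Tnfrsf19 window at the upstream start site holds no match to either motif. The interferon motif GAS, TTCNNNGAA, is in 7.02% of all windows and in 11 of the 57, and the AP-1 motif TGANTCA is in 6.75% and in 8 of the 57, and none of these 4 windows holds either. These are matches of letters only.

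The remaining 17 genes did not pass the test between WD SW and CD livers. The 3 whose probes were brightest in CD livers were Il1rap, Il17rc and Il6ra. Il1rap, the accessory chain that IL-1 and IL-33 receptors need to signal, had log2 signals of 10.41, 9.94, 9.57, 9.54 and 9.66 in WD SW livers, against 9.91, 10.15, 10.11, 10.43 and 10.10 in CD livers, a difference of -0.32 ± 0.172 (SE, adjusted p = 0.264). The groups overlapped, and the 4 of its 6 probes that passed the detection filter all gave a negative difference.

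Il17rc, which with Il17ra forms the receptor for IL-17A and IL-17F, had log2 signals of 8.76, 8.31, 8.72, 8.72 and 8.58 in WD SW livers, against 9.10, 9.18, 8.99, 8.86 and 8.89 in CD livers. The groups did not overlap, but the difference of -0.39 ± 0.121 (SE) had an adjusted p of 0.0660. Il6ra, the IL-6 binding chain through which hepatocytes start the acute phase response, had 8.85, 9.17, 7.82, 8.51 and 7.72 in WD SW livers, against 8.40, 8.58, 9.12, 9.26 and 9.28 in CD livers. WD SW livers 5N and 6L lay below all CD livers and the others within their range, with a difference of -0.51 ± 0.295 (SE, adjusted p = 0.297). The IL-25 receptor chain Il17rb came nearest to the threshold among the other genes, with 0.53 ± 0.152 (SE, adjusted p = 0.0514).

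Among TNF receptors, Tnfrsf21 (death receptor 6) had log2 signals of 5.65, 7.54, 7.63, 5.32 and 7.53 in WD SW livers, against 5.69, 5.78, 4.96, 4.71 and 6.19 in CD livers. In 3 WD SW livers the signal stood above all CD livers and in the other 2 it did not, so that the difference of 1.27 ± 0.499 (SE) had an adjusted p of 0.133. CD livers 2L and 2N were not above background. Tnfrsf19 averaged 6.64 ± 1.14 in WD SW livers and 5.57 ± 0.302 in CD livers (SD, n = 5 each), with an adjusted p of 0.163. Il7r, the IL-7 receptor of lymphocytes, was above background in 4 of 5 WD SW livers and in no CD liver. It could not be tested, and the bound was at least 1.08-fold higher in WD SW livers.

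Most tested markers of macrophages, monocytes and neutrophils rose in WD SW livers as well, and no tested T or NK cell marker did. Of 13 macrophage and monocyte markers with a probe, 6 were tested and 5 rose in WD SW livers (median difference 2.64, against -0.05 over all genes), and Cd5l, Ccr2 and Itgam were above background on no array. Their summed signal was 3879 to 17062 in WD SW livers and 1106 to 1889 in CD livers. Of 10 neutrophil markers, 4 were tested and 3 rose, and their sum was 614 to 3585 in WD SW livers and 258 to 353 in CD livers, with Cxcr2 and Mmp8 above background on no array. Of 15 T and NK cell markers, 3 were tested, none rose and 1, Zap70, fell by 1.62 (adjusted p = 0.0156). The summed signal of the 15 was 2571 to 4266 in WD SW livers and 3154 to 3798 in CD livers. It came mostly from the 3 tested, Prf1, Zap70 and Cd8b1 (10.46, 9.95 and 9.58 on the log2 scale in CD livers), and describes mainly these. As Cd4, Cd8a, Cd5, Cd28, Ncr1 and Gzmb were above background on no array, a change in T and NK cells could not be judged from them. Of 3 B and plasma cell markers tested, Cd79b alone rose (1.06, adjusted p = 0.0374), and the sum was 394 to 630 in WD SW livers and 391 to 571 in CD livers. Ms4a1, Pax5, Blk and Jchain were above background on no array. In CD livers Cd79b and the neutrophil marker Ltf, which also rose, averaged 4.90 and 4.59. Both means lay under the lowest floor there (5.33), so that the detection filter favored their rise. In bulk tissue, more cells of a type and more RNA per cell cannot be told apart, and the part of these cells in the receptor differences was not tested.

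**Figure D3:**
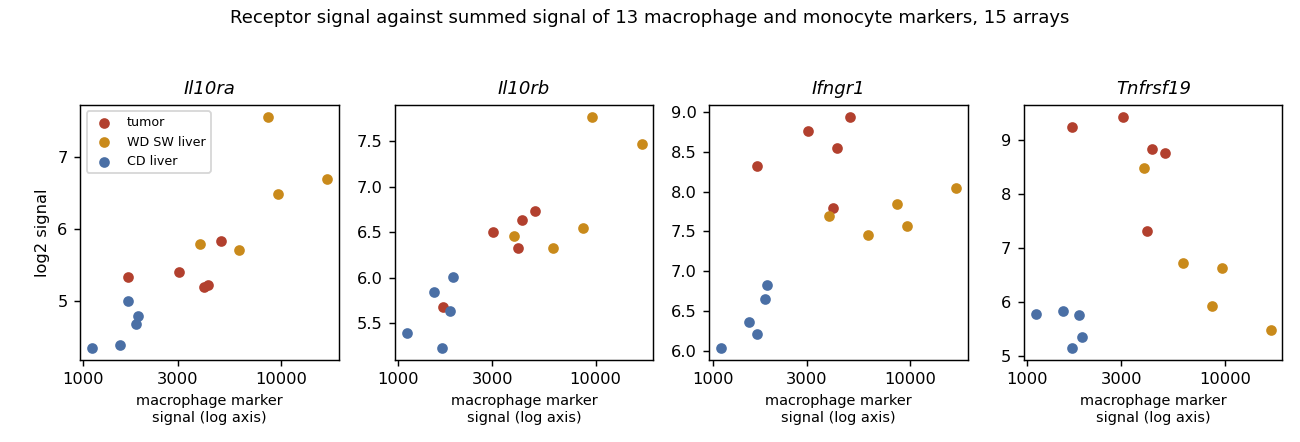
Log2 signal of 4 receptor genes against the summed signal of 13 macrophage and monocyte markers (log axis) on the 15 arrays, colored by group. The Il10ra signal is highest on WD SW liver arrays, where the marker sum is 3879 to 17062, whereas the Tnfrsf19 signal is highest in tumors, where the marker sum is 1685 to 4953.

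Tumors were next set against the WD SW livers of the same mice. Without regard to the mouse, none of the 22 genes tested changed by limma, while 4.01% of the 8674 genes tested did, and 8 of the 22 (36.4%) had an unadjusted p under 0.05, against 19.3% of all genes. Tumor and liver of 1 mouse deviated together, with a correlation of 0.189 to 0.520 over all genes tested in each of the 5 mice. With the mouse as a replicate block, 8 of the 22 genes changed, and 10.5% of all genes did. Of the 8 genes, 3 rose in tumors (Tnfrsf19, Ifngr1 and Il1r1) and 5 fell (Il13ra1, Il1rap, Tnfrsf21, Tnfrsf8 and Il10ra). Il1r1 was above background in 5 tumors and 3 WD SW livers, Tnfrsf21 in 5 WD SW livers and 3 tumors, and Il10ra in 5 WD SW livers and 2 tumors. For these genes the higher group alone met the detection filter, and the lower group could not. Over all genes, 4.42% rose and 6.04% fell. The median difference of the 22 genes was -0.18 on the log2 scale, against 0.00 over all genes. The number of receptor genes called depended on single mice. Without mouse 5N none of the 8 was called (adjusted p = 0.0582 to 0.131). Without mouse 4R only Il1r1 was (the others at 0.0611 to 0.103), and without 6L only Il13ra1 and Il1rap were (the others at 0.0520 to 0.0972). Without mouse 4N, 6 were called and Il10ra (0.0501) and Il1rap (0.0626) were not, and without 5R, 6 were called and Tnfrsf8 (0.0573) and Il1rap (0.0681) were not.

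**Figure D4:**
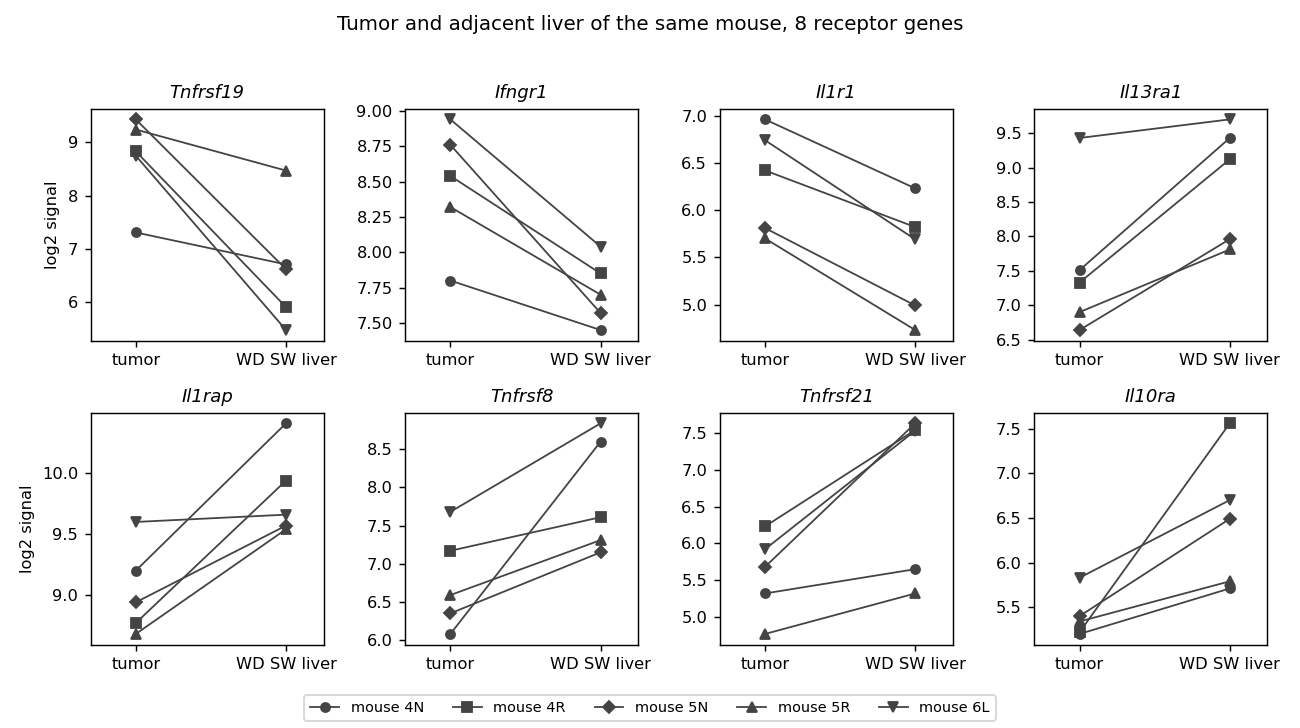
Log2 signal of the 8 receptor genes that changed with the mouse as a block, in the tumor (left) and WD SW liver (right) of each of 5 mice. Lines join the samples of 1 mouse, and in each panel all 5 lines slope the same way, although Il1rap fell by only 0.06 in mouse 6L.

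Tnfrsf19, also called TROY, is a TRAF-binding receptor known as a target of Wnt signaling in mouse intestinal stem cells. Only 1 of its 2 probes passed the detection filter. It had log2 signals of 7.31, 8.83, 9.43, 9.24 and 8.75 in tumors (mice 4N, 4R, 5N, 5R and 6L), against 6.71, 5.91, 6.62, 8.47 and 5.48 in WD SW livers. It was higher in the tumor of every mouse, by 0.60, 2.92, 2.81, 0.77 and 3.28, and so the rise was large in 3 mice and under 1 in mice 4N and 5R. The mean difference was 2.08 ± 0.414 with the mouse as a block (SE, adjusted p = 0.0180) and 2.08 ± 0.538 without it (SE, adjusted p = 0.0551). The liver of mouse 5R, at 8.47, was the one that lay towards the tumors over many genes. Without that liver, the difference was 2.53 with an adjusted p of 0.00636 in the fit without a block, and without both samples of the mouse it was 2.40 with an adjusted p of 0.0176.

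Ifngr1 was higher in tumors again. Its log2 signal was 7.80, 8.54, 8.76, 8.32 and 8.94 in tumors, against the 7.45 to 8.04 of the WD SW livers, and it was higher in the tumor of every mouse by 0.35, 0.69, 1.19, 0.62 and 0.90. The difference was 0.75, with an adjusted p of 0.0205 with the block and 0.0784 without. Ifngr2 was also higher in 5 of 5 tumors, by 0.17 to 0.59, but its adjusted p with the block was 0.0859. Il1r1, the chain that binds IL-1 and signals, had log2 signals of 6.96, 6.42, 5.81, 5.70 and 6.74 in tumors, against 6.23, 5.82, 4.99, 4.73 and 5.69 in WD SW livers. The groups overlapped, but the rise within each mouse was even, at 0.72, 0.59, 0.82, 0.98 and 1.05. The mean was 0.83, with an adjusted p of 0.0142 with the block and 0.198 without, and 2 of the 5 WD SW livers were not above background.

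Its partner Il1rap went the other way. Il1rap had log2 signals of 9.20, 8.77, 8.94, 8.68 and 9.60 in tumors, against 9.54 to 10.41 in WD SW livers, and differed by -1.21, -1.16, -0.63, -0.87 and -0.06 within the 5 mice. It fell by 0.79 on average, with an adjusted p of 0.0297 with the block (0.0878 when arrays were scaled to equal medians) and 0.0710 without. The 4 of its 6 probes that passed the detection filter all gave a negative difference, of -0.61 to -0.86. Of these, 1 passed the test without the block when each probe was tested by itself (adjusted p = 0.0486). Il13ra1, which with Il4ra forms a receptor for IL-4 and IL-13, had log2 signals of 7.51, 7.33, 6.64, 6.90 and 9.43 in tumors, against 9.43, 9.12, 7.96, 7.81 and 9.70 in WD SW livers. The tumor of mouse 6L kept nearly the signal of its liver, with a difference of -0.27, and the other 4 mice had -1.92, -1.80, -1.32 and -0.90. The mean was -1.24, with an adjusted p of 0.0160 with the block and 0.227 without.

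Among TNF receptors, Tnfrsf8 (CD30, known from activated lymphocytes) had log2 signals of 6.08, 7.17, 6.35, 6.59 and 7.68 in tumors, against 8.60, 7.61, 7.15, 7.31 and 8.84 in WD SW livers. It was lower in the tumor of every mouse, most in mouse 4N, where the difference was -2.52. It fell by 1.13 on average, with an adjusted p of 0.0402 with the block and 0.138 without. Tnfrsf21 had log2 signals of 5.32, 6.23, 5.68, 4.77 and 5.92 in tumors, against the 5.32 to 7.63 of the WD SW livers. It differed by -0.32, -1.32, -1.95, -0.55 and -1.62 within the mice. The tumors of mice 4N and 5R, which had the smallest falls, were not above background, so that the floor limits these falls. The larger falls were in the 3 mice whose livers were highest, but each fall is measured from the liver signal itself. The mean was -1.15, with an adjusted p of 0.0264 with the block and 0.226 without. Tnfrsf1b, the second TNF receptor of white blood cells, was lower in 5 of 5 tumors but was not called (-0.45, adjusted p = 0.103 with the block).

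Il10ra, which had risen in WD SW livers, was lower in tumors. Its log2 signal was 5.20, 5.22, 5.40, 5.34 and 5.83 in tumors, of which 2 were above background, against 5.71 to 7.56 in WD SW livers. The difference was -1.05, with an adjusted p of 0.0469 with the block and 0.0974 without. With the block, the call was lost in 9 of 12 alternatives (adjusted p up to 0.131). The macrophage and monocyte markers moved the same way, as 5 of the 6 tested fell with the block (median -1.24) and none without it, and their summed signal was 1685 to 4953 in tumors and 3879 to 17062 in WD SW livers. Of 5 neutrophil markers tested, 2 fell with the block, with a sum of 281 to 2608 in tumors and 614 to 3585 in WD SW livers, and of 4 T and NK cell markers none did, with a sum of 2547 to 4385 in tumors and 2571 to 4266 in WD SW livers.

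Markers of cells other than macrophages were also lower in tumors than in WD SW livers. Of 9 liver endothelial markers tested, 3 fell with the block (Stab2, Clec4g and Fcgr2b) and 1, Stab2, without it (-1.10, adjusted p = 0.0210), and the summed signal was 742 to 2691 in tumors and 1209 to 5827 in WD SW livers. Of 6 stellate cell and fibroblast markers Dcn fell with the block (-1.73, adjusted p = 0.0264), and the sum was 681 to 3592 in tumors and 1610 to 10176 in WD SW livers. Of 10 hepatocyte markers Cps1 fell with the block (-2.78, adjusted p = 0.0265). Of 2 B and plasma cell markers Sdc1 fell with the block and without it (-1.14, adjusted p = 0.0308 without), with a sum of 272 to 415 in tumors and 394 to 630 in WD SW livers. Sdc1 averaged 8.01 in WD SW livers and the other marker, Cd79b, 5.96, while Ms4a1, Pax5, Blk and Jchain were above background on no array. The fall thus describes Sdc1, and whether it comes from B or plasma cells was not tested. The single cholangiocyte marker tested, Sox9, did not pass the test, and the sum of 6 markers was 169 to 547 in tumors and 249 to 2418 in WD SW livers. The part of any of these cells in the receptor differences was not tested.

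Tumors and CD livers came from different mice. This comparison shares its tumor arrays with the one above and its CD arrays with the diet comparison, and so repeats part of both. Of 20 genes tested, 8 changed (40.0%), against 25.1% of the 8352 genes tested. Tnfrsf19 and Il1r1 were above background in 5 tumors and 2 CD livers, and Il10rb in 5 and 3. For these genes the tumors alone met the detection filter, and the CD livers could not. Of the 20, 5 rose and 3 fell (5 and 1 when arrays were scaled to equal medians), while 12.3% of all genes rose and 12.8% fell. The median difference of the 20 genes was -0.05 and that of all genes -0.04.

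Markers of several cell types differed between tumors and CD livers as well. Of 6 macrophage and monocyte markers tested, 5 were higher in tumors (median 1.39), and their summed signal was 1685 to 4953 in tumors and 1106 to 1889 in CD livers. All 3 neutrophil markers tested were higher, with a sum of 281 to 2608 in tumors and 258 to 353 in CD livers. Of 8 liver endothelial markers, Lyve1 was higher and Tek and Clec4g were lower, with a sum of 742 to 2691 in tumors and 2871 to 6022 in CD livers. In CD livers Lyve1 and the neutrophil marker Ltf averaged 4.67 and 4.59, under the lowest floor there (5.33). The detection filter therefore favored their rise. Of 5 stellate cell and fibroblast markers, Dcn and Acta2 were lower, with a sum of 681 to 3592 in tumors and 3202 to 7095 in CD livers. Of 10 hepatocyte markers 3 were lower (Serpina1a, Cps1 and Tat). Zap70, 1 of 3 T and NK cell markers tested, was lower, as were the only B and plasma cell marker tested, Sdc1, and the only cholangiocyte marker tested, Sox9. The part of these cells in the receptor differences was not tested.

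The 5 genes that rose were Tnfrsf19, Ifngr1, Tnfrsf12a, Il1r1 and Il10rb. Tnfrsf19 had the largest difference of the 20 genes, with 7.31 to 9.43 in tumors, against 5.14, 5.76, 5.82, 5.77 and 5.35 in CD livers, where 3 of the 5 arrays were not above background. The groups did not overlap and the fitted difference was 3.14 ± 0.342 (SE, adjusted p = 5.46e-05). It rests on 1 of the 2 Tnfrsf19 probes, as the other did not pass the detection filter. Ifngr1 differed by 2.05 ± 0.228 (SE, adjusted p = 6.13e-05), with 7.80 to 8.94 in tumors and 6.04 to 6.83 in CD livers. Thus Ifngr1 was lowest in CD livers, higher in WD SW livers and highest on average in tumors, although the tumor of mouse 4N lay within the range of the WD SW livers.

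Tnfrsf12a had log2 signals of 7.0, 8.84, 7.28, 7.91 and 7.33 in tumors, against 5.90 to 7.0 in CD livers, with a difference of 1.36 ± 0.339 (SE, adjusted p = 0.0126). Between tumors and WD SW livers its difference was 0.38 ± 0.321 (SE, adjusted p = 0.578). Il1r1 differed by 1.17 ± 0.321 (SE, adjusted p = 0.0201) and was above background in 5 tumors and 2 CD livers, and without CD liver 1L the adjusted p was 0.0523. Il10rb had log2 signals of 6.33, 6.63, 6.50, 5.68 and 6.73 in tumors and differed from CD livers by 0.75 ± 0.227 (SE, adjusted p = 0.0316). Its call was lost without any 1 of CD livers 1L, 1R and 2N or tumors 4R, 5N and 6L (adjusted p = 0.0596 to 0.0792).

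The 3 genes that fell were Il1rap, Il17rc and Tnfrsf8. Il1rap fell by 1.11 (SE 0.179, adjusted p = 9.17e-04), and every tumor, at 8.68 to 9.60, lay below every CD liver, at 9.91 to 10.43. Il17rc had log2 signals of 7.50, 8.12, 8.12, 8.99 and 8.26 in tumors, against 8.86 to 9.18 in CD livers. The tumor of mouse 5R lay within the CD range and the other 4 below it, and Il17rc fell by 0.81 (SE 0.224, adjusted p = 0.0211). All 3 of its probes fell in this comparison, and the adjusted p was 0.0511 without CD liver 1R and 0.129 when arrays were scaled to equal medians. Tnfrsf8 fell by 0.93 (SE 0.279, adjusted p = 0.0306), with 6.08 to 7.68 in tumors and 7.35 to 8.03 in CD livers, and its call was lost in 6 of the 10 fits that left out 1 array (without CD livers 1L, 1R or 2L or tumors 4N, 5N or 5R, adjusted p = 0.0535 to 0.0766) and with scaling to equal medians (0.164). Il6ra had log2 signals of 8.27, 9.03, 7.97, 7.96 and 8.05 in tumors and a difference from CD livers of -0.67 ± 0.243 (SE, adjusted p = 0.0635).

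**Figure D5:**
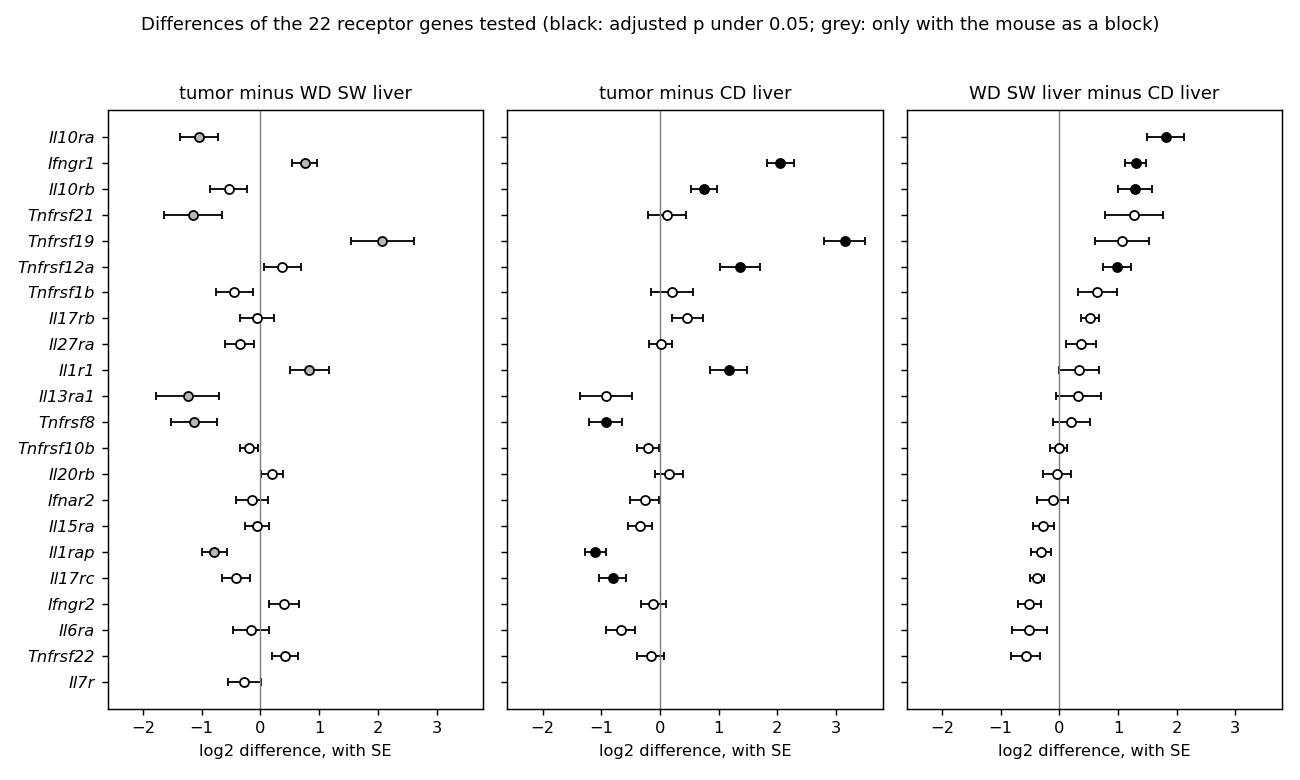
Differences of the 22 receptor genes tested, on the log2 scale with their SE, for tumor minus WD SW liver, tumor minus CD liver and WD SW liver minus CD liver. Black points have an adjusted p under 0.05, grey points have it only with the mouse as a replicate block, and a gene without a point was not tested. Tnfrsf19 reaches 3.14 against CD livers, and all 4 black points against CD livers in the diet panel are positive.

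The other genes compared stayed within a narrower range. Il15ra, Il20rb, Il27ra, Ifnar2, Tnfrsf10b (the TRAIL death receptor of the mouse) and Tnfrsf22 (a mouse decoy receptor for TRAIL) passed the test in no comparison, with or without the block. Their differences lay between -0.57 and 0.41 on the log2 scale. Tnfrsf22 set both ends of that range, at 0.41 for tumors against WD SW livers and -0.57 for WD SW livers against CD livers, with adjusted p of 0.341 and 0.166. It has close relatives next to it in the mouse genome, Tnfrsf23 and Tnfrsf26, and the signals of all 3 are uncertain where a probe reads more than 1 of them. The second probes of Tnfrsf22 and of Ifngr2 were dimmer and had the opposite sign between tumors and WD SW livers, at -0.19 and -0.46.

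The ligands of these receptors were mostly not measurable. Of 28 interleukin and interferon genes with a probe, 5 could be tested between WD SW and CD livers, and of 17 TNF ligand genes only Tnfsf10 (TRAIL) could. Il1b, the ligand of Il1r1 and Il1rap, rose in WD SW livers by 1.81 (SE 0.421, adjusted p = 0.0211), the 1 of the 5 that changed (median 0.39). Over all genes tested, 9.78% changed. Tnfsf10 differed by 0.58 (adjusted p = 0.206). No ligand changed between tumors and WD SW livers without the block, and of 7 tested with the block Ebi3, a subunit of IL-27 and IL-35, fell by 0.71 (adjusted p = 0.0322). The Ebi3 mean in tumors, 4.88, lay under the lowest floor there (5.09), so that the detection filter favored a fall. Over all genes, 4.01% changed without the block and 10.5% with it.

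Receptor chains with other symbols were 18 genes with a probe. Between WD SW and CD livers, where 6.07% of all genes rose, 3 of 10 tested rose and none fell (median 0.38). These were the colony-stimulating factor receptors Csf1r, with 2.59, Csf2ra, with 2.0, and Csf3r, with 1.06, which myeloid cells carry, and Csf1r is also 1 of the macrophage markers. In CD livers Csf2ra and Csf3r averaged 5.01 and 4.98, under the lowest floor there (5.33). The detection filter therefore favored a rise of both against CD livers, and their differences start from the floor. Between tumors and CD livers, Csf1r (1.54) and Csf2ra (0.92) were higher in tumors, while Il6st fell by 0.56 and Sigirr by 0.78. Il6st encodes gp130, the chain that signals with Il6ra, and Sigirr restrains IL-1 receptor signaling. Ngfr, the low-affinity receptor of nerve growth factor, fell by 0.86 as the fifth of the 10 genes tested. The Ngfr mean in tumors, 4.96, lay under the lowest floor there (5.09). Over all genes, 25.1% changed in that comparison. Csf1r fell by 1.05 in tumors against WD SW livers with the block (adjusted p = 0.0200), the 1 of 12 tested, and none of the 12 changed without it. Over all genes, 10.5% changed with the block and 4.01% without.

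Inside the cell, 23 adaptors and kinases and 20 transcription factors and feedback genes had a probe. In WD SW livers against CD livers, 6.07% of all genes rose. Of 18 adaptors and kinases tested 1 rose, near that share. It was Irak3 (1.87, adjusted p = 0.0120), which restrains IL-1 and Toll-like receptor signaling in macrophages. The median of the 18 was 0.14. Of 15 transcription factors and feedback genes tested 1 rose, also near that share (median 0.42). It was Tnfaip3 (1.81, adjusted p = 0.00270), the A20 protein that NF-kappaB induces and that shuts TNF receptor signaling down. Of 7 inhibitors 3 rose (median 0.44), namely Il1rn (2.26), which blocks Il1r1, Ptpn6 (1.02), a phosphatase of blood cells, and Tnip1 (1.10), a partner of A20. Il1rn averaged 5.15 in CD livers, under the lowest floor there (5.33), so that the detection filter favored its rise against CD livers.

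In tumors against CD livers, Tnfaip3 (1.54), Il1rn (1.66) and Tnip1 (1.11) were higher again, with Jak2 (0.72), Casp8 (0.59) and Nfkbia (0.46), while Stat3 fell by 0.64 and Il18bp, which neutralises IL-18, by 0.45. These were 2 of 18 adaptors and kinases, 3 of 15 transcription factors and feedback genes and 3 of 7 inhibitors, while 25.1% of all genes changed. In tumors against WD SW livers, none of these 3 lists had a change without the block, while 4.01% of all genes changed. With the block, Irak3 fell by 1.32, Map3k14 (NIK, the kinase of the alternative NF-kappaB pathway) by 1.02, Jak3 by 0.77 and Stat2 by 0.56. These were 3 of 17 adaptors and kinases and 1 of 16 transcription factors and feedback genes, while 10.5% of all genes changed.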

How the data were processed

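The authors deposited 1 table of non-normalized signal intensity per probe for all 15 Illumina mouse BeadChip arrays, without detection p-values or control probes, and a table of processed intensity values of the same arrays, which served as an alternative and whose normalization the sources used here do not state. The 5 tumors and 5 WD SW livers of the same mice and the 5 CD livers were grouped by GEO's labels. Slide and scan batches were not given in the sources used here, and arrays have no read depth, so their number limits the precision. Of 45281 probes, 34885 had 1 gene symbol in the platform annotation, 18 had several and 10378 none. The 1523 probes of olfactory, vomeronasal and trace amine receptor genes stood in for negative controls.

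The intensities were background-corrected with normexp, quantile-normalized and taken to log2 with limma 3.58.1 in R 4.3.3 (neqc, robust, offset 16, which shrinks differences of dim probes). A probe counted as detected (above background) where the share of stand-ins at or above its intensity was under 0.01, and was compared if detected on 5 or more of a comparison's 10 arrays. For a gene with several such probes, the one brightest on average across all 15 arrays was taken. Tnfrsf19, Il1r1, Il10rb, Tnfrsf8 and Tnfrsf21 had 2 probes each, of which 1 was compared and the other was not. Ifngr1, Il10ra, Il13ra1 and Tnfrsf12a had 1 probe each. Each comparison was fitted with lmFit and eBayes (with a trend) on its own 10 arrays, and p-values were adjusted over all genes tested by Benjamini-Hochberg, with a threshold of 0.05. P-values measure the spread between mice as the labels name them. The mouse served as a replicate block for tumors against WD SW livers, since the labels give tumor and liver the same mouse. The correlations of their deviations, 0.189, 0.261, 0.442, 0.494 and 0.520, each exceeded that with any other mouse (-0.048 to 0.126). Alternatives changed the background correction, scaling, filter, probe choice, samples fitted, block and each array in turn, and the scripts were tested on simulated data. Promoters came from RefSeq. Figures were drawn with matplotlib 3.10.9.

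All receptor genes could be named. Values per sample were given for genes changed in at least 1 comparison, the 3 with the brightest probes in CD livers and those whose groups did not overlap with means over 1 apart. Of the other lists, up to 4 genes each with the smallest adjusted p were named, and Csf2ra between tumors and CD livers was named beyond that after its values were seen. The receptor genes and the lists of ligands, adaptors, inhibitors and cell type markers were chosen with earlier results of these data known.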

Additional observations from a re-analysis of the deposited data

Results flagged for a closer look

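Of 66 groups of 5 arrays (22 receptor genes in 3 groups), 3 held an array far from the other 4, by a gap to its neighbor that made up most of the range of the group. About 1 in 20 such groups would be marked by chance. For Ifngr2, the tumor of mouse 5R had a log2 signal of 9.50, against 8.41 to 8.56 in the other tumors, and the gap was 0.861 of the range. For Il20rb, the tumor of mouse 6L had 5.02, against 5.54 to 5.66, with a gap of 0.809 of the range. For Ifnar2, CD liver 1L had 7.0, against 5.96 to 6.20 in the other CD livers, with a gap of 0.766 of the range. None of these 3 genes passed the test in the comparisons above.

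A pair of genes that could not be tested gave a signal above background in some WD SW livers and in no CD liver. Ifnlr1, the ligand-binding chain of the receptor for type III interferons, which uses Il10rb as its partner, was above background in 3 of 5 WD SW livers, where it averaged 5.52 on the log2 scale, and in no tumor. Tnfrsf1a, the death domain receptor of TNF that most cells carry, was above background with 1 of its probes in 3 of 5 WD SW livers, where that probe averaged 5.22, and over its probes in 2 of 5 tumors. On its brightest probe it averaged 5.37 in tumors, 5.17 in WD SW livers and 4.84 in CD livers.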

How the results depend on the processing

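Under the alternatives, none of the 11 receptor genes recomputed changed the direction of its difference on its chosen probe or probe mean. These were the genes called in the main fit of a comparison or with the block, each followed in the comparison that called it. Genes called only under an alternative were not followed. Second probes of other genes, such as Tnfrsf22 and Ifngr2, are outside this. Of the values recomputed for single genes and comparisons, 382 kept their side of the threshold, 68 fell short of it and 19 newly passed it. Ifngr1 in the diet comparison, and Tnfrsf19, Ifngr1, Il1rap and Tnfrsf12a between tumors and CD livers, kept their call in every alternative that tested them. Il10ra in the diet comparison passed the filter through WD SW livers alone and was not tested with genes above background on all 10 arrays, and with no filter its adjusted p was 0.00920. Tnfrsf12a in the diet comparison was lost in 6 of 18 alternatives (adjusted p up to 0.0744).

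In the diet comparison the count of 4 receptor genes became 2 with genes above background on all 10 arrays, a filter that leaves fewer genes, and lay between 2 and 6 with 1 array left out (2 without CD liver 1L, 6 without WD SW liver 5R). Over all genes the count of 824 became 499 with that filter and 475 to 964 with 1 array left out (522 without CD liver 1L, 509 without 1R, 475 without 2L). Between tumors and WD SW livers without the block, the count of 0 became 1 with the mean of a gene's probes (Il1rap), 4 in 1 fit of all 15 arrays (Tnfrsf19, Il1rap, Il10ra and Ifngr1), 1 without both arrays of mouse 5R and 8 with the mouse as a replicate block, and lay between 0 and 2 with 1 array left out. Over all genes 348 became 907 with the block, 681 in the fit of 15 arrays, 221 with the filter on all 10 arrays, and 154 to 468 with 1 array left out (226, 154 and 227 without WD SW livers 4N, 4R and 5N, 176 without tumor 5N).

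With the block, the count of 8 became 4 with no filter, 5 with the filter on all 10 arrays and 0 with no replicate block, and lay between 0 and 6 with 1 mouse left out, while over all genes 907 became 334 to 867 (393 without mouse 4R, 334 without 5N, 520 without 6L). Between tumors and CD livers the count of 8 became 5 with the filter on all 10 arrays and lay between 5 and 8 with 1 array left out. Scaling to equal medians in place of quantiles moved the median of all genes in that comparison to 0.14, against -0.04, and gave 6 receptor genes, of which 5 were higher and 1 lower, against 5 and 3. With that scaling, 70.6% of all changed genes were higher there, against 49.1%, and 81.4% in the diet comparison, against 62.1%. Blocks were left out of comparisons with CD livers, which share no mouse.

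Weak signal limited the comparisons, as 39 to 41 of the 61 receptor genes were not tested in each of them, and a signal at background does not show that a receptor is absent.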
